A study of Homo sapiens with 6 samples.

Results

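Long intergenic noncoding RNAs with a LINC symbol were followed through loss of the nucleoporin TPR in cells whose CRM1 export was blocked. A gene was taken where its symbol was LINC plus a number and its CPM was above 1 in at least 3 of 6 libraries. CPM is the count scaled to equal library totals. Outside this threshold and the cell type markers, CPM values were scaled by TMM factors as well. Of 58051 genes in the count table, 2225 had such a symbol, and 184 passed. Another 3 genes near TIPARP, LINC02029, LINC00880 and LINC00881, were left out by the rule. The remaining 2038 fell below the threshold, and 1084 of those had no count in any library. Of the 184 genes, 157 were above 1 CPM in all 6 libraries, and 0 passed through the 3 libraries of a single group alone. They made up 1.08% of the 16974 genes tested.

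Total RNA was sequenced from DLD-1 cells, a human colorectal cancer line, with genotype AID-NeonGreen-TPR, in which auxin triggers degradation of the tagged TPR protein. All 6 cultures received 200 nM Leptomycin B for 3 h, an inhibitor of the export receptor CRM1. Of these, 3 cultures (LMB+auxin) also received 1 mM auxin for 2 h, and the other 3 (LMB) did not. The 3 h come from the incubation time recorded for the samples and the study's methods, whereas the sample titles give 2 h. The comparison asked which RNAs changed in abundance on loss of TPR when CRM1 was already inhibited. Libraries without Leptomycin B, auxin in cells without the degron, and the TPR protein level were not analysed here, so an effect of auxin itself and the loss of TPR cannot be told apart. The number of clones behind the edited line was not given in the sources used here. Epithelial markers EPCAM, CDH1, KRT8, KRT18 and VIL1 and the intestinal factor CDX2 were present, CDX2 at 130 to 153 CPM, whereas CDX1 and LGALS4 were near 0. Markers of blood cells, fibroblasts, endothelium and hepatocytes were at or near 0, with at most 0.750 CPM for COL1A1.

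LINC genes are transcribed by RNA polymerase II from their own promoters, and most of their transcripts are spliced and polyadenylated without coding for a known protein. Many are kept in the nucleus and are turned over there by the exosome, while others are exported by the same NXF1 route as mRNA. TPR forms filaments on the nuclear side of the pore and anchors the TREX-2 complex, which links transcription to that route. The symbol records the position and the lack of a coding frame, not a shared function.

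Of the 184 genes, GENCODE 44 classed 175 as lncRNA, 8 as transcribed pseudogenes and 1 as a gene to be experimentally verified. They lay on 23 chromosomes, with 24 on chromosome 1, 20 on chromosome 2 and 17 on chromosome 7. Their median exonic length was 2752 bases over a median of 4 separate exon blocks, against 1411 bases and 2 blocks in the 2674 other tested lncRNA genes. Despite the name, the exons of 65 of them overlapped exons of another counted gene, on the opposite strand for 54 and on the same strand for 15. The strand setting of the counting was not given in the sources used here, so values of those 65 may hold reads of the partner. The other 119 had no such overlap.

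RefSeq promoter windows on GRCh38.p14, from 250 bases before to 50 bases after the annotated start, were found for 127 of the 184 genes. CpG-rich windows, with a GC content of at least 50% and an observed over expected CpG ratio of at least 0.6, made up 46.5% of them. The share was 66.5% in other tested lncRNA genes, 80.2% in tested coding genes and 46.8% over all 35116 promoters in the table. These and the motif shares below rest on 832 windows for the 2674 other lncRNA genes and 10133 for the 12663 coding genes. Each motif was searched on either strand. The AP-1 site TGANTCA was present in 9.45% of the LINC windows, 7.71% of all windows, 6.01% of other tested lncRNA genes and 4.46% of tested coding genes. In the same order, the shares were 12.6%, 11.5%, 7.33% and 5.84% for TATAAA and 40.2%, 34.6%, 32.8% and 36.9% for CCAAT. The LINC share of these 3 motifs was above each of the others. For the E-box CACGTG the shares were 8.66%, 7.26%, 8.77% and 10.2%. The core of the aryl hydrocarbon receptor element, GCGTG or its reverse complement CACGC, was in 37.8%, 36.5%, 45.6% and 50.8%. For this pair the LINC share was above that of all windows and below those of the tested lncRNA and coding genes. These are descriptions with no test.

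The windows below are shown because LINC01126, LINC00702 and LINC01816 are among the 7 genes that passed the paired test described further on, and LINC00511 is the single gene of the 184 that the study called after TPR loss without Leptomycin B. Capitals mark matches to the motifs just named, which are a description of letters and not of binding. LINC01126 lies at chr2:43226961-43227260 on the plus strand, LINC00702 at chr10:4243863-4244162 on the minus strand, LINC01816 at chr2:70125267-70125566 on the minus strand and LINC00511 at chr17:72640423-72640722 on the minus strand.
LINC01126: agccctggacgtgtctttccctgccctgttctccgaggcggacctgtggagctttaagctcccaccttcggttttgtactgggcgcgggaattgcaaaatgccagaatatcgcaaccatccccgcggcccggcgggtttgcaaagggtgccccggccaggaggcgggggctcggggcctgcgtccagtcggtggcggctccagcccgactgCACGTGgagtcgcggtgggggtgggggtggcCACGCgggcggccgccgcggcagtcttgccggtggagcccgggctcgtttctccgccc
LINC00702: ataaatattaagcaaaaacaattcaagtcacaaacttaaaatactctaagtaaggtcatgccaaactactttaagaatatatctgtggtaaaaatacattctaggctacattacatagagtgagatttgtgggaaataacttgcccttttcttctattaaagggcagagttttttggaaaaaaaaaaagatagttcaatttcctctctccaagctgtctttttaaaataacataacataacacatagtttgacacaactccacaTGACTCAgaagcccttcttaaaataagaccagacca
LINC01816: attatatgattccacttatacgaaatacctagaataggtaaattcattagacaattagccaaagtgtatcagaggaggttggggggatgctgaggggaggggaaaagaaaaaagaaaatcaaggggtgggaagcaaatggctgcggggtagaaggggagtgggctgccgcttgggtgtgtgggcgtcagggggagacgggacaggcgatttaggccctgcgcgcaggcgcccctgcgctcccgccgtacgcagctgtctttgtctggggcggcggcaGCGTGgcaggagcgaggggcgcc
LINC00511: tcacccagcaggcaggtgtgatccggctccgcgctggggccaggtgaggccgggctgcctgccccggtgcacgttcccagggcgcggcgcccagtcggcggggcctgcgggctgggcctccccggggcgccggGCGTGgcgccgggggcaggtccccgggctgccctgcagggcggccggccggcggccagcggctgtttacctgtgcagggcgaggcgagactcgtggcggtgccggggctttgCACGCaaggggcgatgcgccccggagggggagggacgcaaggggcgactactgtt
The LINC01126 window held 31 CpG dinucleotides at 69.7% GC, with a CACGTG and a CACGC. The LINC00702 window had 0 CpG at 31.3% GC and a single TGACTCA downstream of its start. LINC01816 had 18 CpG and 1 GCGTG, and its RefSeq start lay 7607 bases from the outermost start in GENCODE 44. LINC00511 was the richest in CpG of the 4, with 35 at 78% GC and 2 matches to GCGTG.

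The LINC genes were low in abundance. Their median CPM over the 6 libraries was 2.71, with a range of 0.819 to 54.2, whereas the median of all tested genes was 18.5. Per kilobase of GENCODE 44 exon, their median level was 1.09 CPM, against 2.95 in other lncRNA genes. Together they took 25805 to 32331 counts per library, or 0.0859% to 0.0978% of library totals of 28261903 to 35992425. That share was 0.0978%, 0.0877% and 0.0898% in LMB replicates 1 to 3 and 0.0937%, 0.0859% and 0.0870% in LMB+auxin replicates 1 to 3. The summed LINC output overlapped between the groups, while it was lower with auxin in each of the 3 same-numbered pairs.

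The highest levels per kilobase belonged to short transcribed pseudogenes. LINC00680 stood at 38.7 CPM per kilobase, LINC00674 at 25.5 and LINC00888 at 22.2, ahead of the lncRNA LINC02086 at 14. These first 3 were picked for their level after the values were seen, and reads from their parent gene copies could be shared with them. Their lengths are those of GENCODE 44, whereas the study's methods name an earlier annotation for counting, so these levels may mix gene models. For LINC00680, 100% of the exonic bases also overlap another counted gene. Their fold changes were small, with log2 values of -0.02, 0.13 and 0.02.

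By reads taken, LINC02086, a lncRNA beside HOXB7, came first. It had 52.0, 52.7 and 55.5 CPM without auxin and 52.4, 56.4 and 55.8 CPM with it, so the groups overlapped. LINC00649 had 39.4 ± 1.52 CPM without auxin and 41.6 ± 0.896 CPM with it (SD, n = 3 each), and LINC02210, a unitary pseudogene, 40.2 ± 4.16 and 39.1 ± 5.68 CPM. LINC01089 had 30.8 ± 4.83 CPM without auxin and 27.2 ± 2.33 CPM with it, but 57.9% of its exonic bases are shared with the antisense gene ENSG00000274292. Exons of LINC01089 also overlap those of a coding gene on the same strand. None of these 4 passed either test, and the log2 fold changes of the 10 LINC genes with the highest CPM ran from -0.18 (LINC01089) to 0.25 (LINC00641). LINC02889, LINC01588, LINC00243 and LINC03057 lay between those values.

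At the other end, by CPM without TMM factors, the 3 genes just inside the threshold were LINC01775, LINC01220 and LINC01315, each with a third-highest CPM of 1.03. Just outside were LINC01273 at 0.999, LINC01411 at 0.966 and LINC02576 at 0.963 CPM. At this level counts were low, from 13 to 39 reads per library for LINC01775 and LINC01220.

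**Figure D1:**
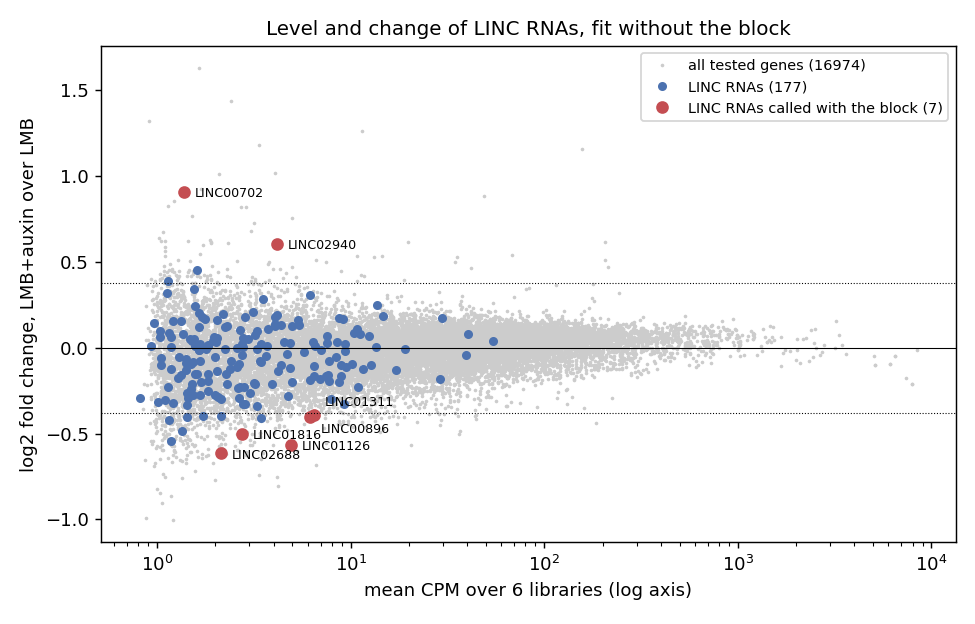
Mean CPM over 6 libraries (x, log axis) against the log2 fold change of LMB+auxin over LMB in the fit without pairing (y) for all 16974 tested genes in grey and the 184 LINC genes in blue and red, with dotted lines at 1.3-fold. Most LINC genes lie at low CPM and inside the lines, and the 7 red points are the genes that passed the paired test.

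Without pairing, the LINC genes were close to unchanged. Their median log2 fold change was -0.05, with an interquartile range of -0.20 to 0.07, and 168 of 184 (91.3%) lay within 1.3-fold. No LINC gene was called at an adjusted p under 0.05 and a fold of at least 1.3 by the edgeR quasi-likelihood test, beside 0.00589% of all tested genes. At an unadjusted p under 0.05 there were 8 (4.35%), 2 higher and 6 lower, beside 4.37% of all tested genes. DESeq2 without pairing called 0, beside 0.0648% of all tested genes, and gave 7 (3.8%) at an unadjusted p under 0.05, beside 3.1%. By this test the LINC genes gave no more calls than the background share.

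The replicate numbers were taken to pair the libraries, since same-numbered libraries deviated together from their group means. This pairing was read from the counts and not from the labels. With the replicate number as a block, edgeR called 7 LINC genes (3.8%), beside 1.18% of all tested genes. LINC02940 and LINC00702 rose, a share of 1.09% beside 0.3% called higher over all genes. LINC01126, LINC00896, LINC01311, LINC01816 and LINC02688 fell, or 2.72% beside 0.884% called lower. At a paired adjusted p under 0.05, whatever the fold, there were 10 LINC genes (5.43%) beside 4.36%, and at an unadjusted paired p under 0.05 there were 29 (15.8%, 8 higher and 21 lower) beside 19.9%. The LINC share was thus above the background among genes past 1.3-fold and below it at the unadjusted threshold. Without pairing, the edgeR adjusted p of the 7 was 0.890 for LINC02940 and 0.954 for each of the others. None of the 7 has an exon in common with another counted gene. At 2 to 5 CPM, 6.15% of 65 LINC genes were called beside 3.02% of all tested genes, and at 5 CPM or more, 4% of 50 beside 0.713%. Under 2 CPM the share was 1.45% of 69, beside 1.85%. DESeq2 with the same block called 0 of the LINC genes, beside 0.183% of all tested genes, but it gave 146 of them no adjusted p, all 7 called genes included, so those 7 could not be called by it. Its log2 fold changes for the 7 lay within 0.024 of the edgeR values, but its evidence was weaker. Their unadjusted DESeq2 p ran from 0.0031 (LINC01126) to 0.0510 (LINC01816), under 0.05 in 6, where paired edgeR gave 2.5e-06 and 9.2e-04. LINC00235, which kept an adjusted p in this fit, had 0.360 at an unadjusted DESeq2 p of 0.0198. Over all LINC genes 9 had an unadjusted DESeq2 p under 0.05, or 4.89% beside 7.92% of all tested genes.

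LINC02940, transcribed from the minus strand at chr21:38988569-39062894 with 9 exon blocks, rose in all 3 pairs. It had 3.78, 3.11 and 2.98 CPM in LMB replicates 1 to 3 and 5.00, 5.28 and 4.69 CPM in LMB+auxin replicates 1 to 3, the order used for all genes here. Every LMB+auxin library lay above every LMB library. The means were 3.29 ± 0.429 and 4.99 ± 0.296 CPM (SD, n = 3 per group), and the paired edgeR fit gave a log2 fold change of 0.61 with SE 0.12 (adjusted p = 4.2e-04). Its nearest tested coding gene, PSMG1, a proteasome assembly chaperone 111875 bases away, had a log2 fold change of 0.10 (paired edgeR adjusted p = 0.248).

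LINC00702, at chr10:4201141-4243912 on the minus strand, had the largest fold change of the 184. Its CPM was 1.39, 0.545 and 0.974 in LMB and 2.30, 0.858 and 2.24 in LMB+auxin. The groups overlapped, with both libraries of replicate 2 low, while all 3 pairs were higher with auxin. The lowest of its counts was 17 reads. The log2 fold change was 0.90 with SE 0.20 in the paired edgeR fit (adjusted p = 0.00181) and its SE was 0.40 without pairing. Its nearest tested coding gene was KLF6, a zinc finger transcription factor, 415860 bases away on the same strand. KLF6 rose as well, from 28.8 ± 6.03 to 40.7 ± 8.0 CPM (SD, n = 3 per group). Its log2 fold change was 0.50 (paired edgeR adjusted p = 4.9e-07).

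LINC01126, a single-exon gene at chr2:43227210-43228855 on the plus strand, fell in all 3 pairs. It had 6.76, 5.58 and 5.2 CPM without auxin and 4.83, 3.36 and 3.62 CPM with it, with no overlap between the groups. The log2 fold change was -0.57 with SE 0.11 (paired edgeR adjusted p = 3.7e-04). Its start lies 604 bases from that of ZFP36L2, transcribed in the opposite direction, which encodes a protein that binds AU-rich elements and promotes mRNA decay. ZFP36L2 went from 14 ± 0.292 to 10.8 ± 1.42 CPM (SD, n = 3 per group). Its log2 fold change of -0.37 was past the paired edgeR test (adjusted p = 0.00113) but just short of 1.3-fold.

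A pair of the called genes lie on chromosome 22, both single-exon genes on the plus strand. LINC00896, at chr22:20206380-20208524, had 8.53, 6.25 and 6.26 CPM without auxin and 6.25, 4.67 and 4.94 CPM with it. LINC01311, at chr22:19171395-19172851, had 8.25, 6.25 and 7.59 CPM without auxin and 5.2, 5.66 and 5.98 CPM with it. In both, the groups did not overlap, although the highest LMB+auxin value of LINC00896 lay close under its lowest LMB value. The log2 fold changes were -0.40 with SE 0.10 for LINC00896 (paired edgeR adjusted p = 0.0098) and -0.39 with SE 0.10 for LINC01311 (adjusted p = 0.0137). Their nearest coding genes, the Nogo receptor gene RTN4R and the mitochondrial citrate carrier gene SLC25A1, had log2 fold changes of -0.24 and -0.12 that did not pass (adjusted p = 0.103 and 0.161).

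LINC01816, at chr2:70124034-70132923 on the minus strand, had 3.50, 3.27 and 2.84 CPM without auxin and 2.26, 2.37 and 2.14 CPM with it. The LMB+auxin libraries lay close together and below all LMB libraries. The log2 fold change was -0.50 with SE 0.15 (paired edgeR adjusted p = 0.0289), while C2orf42, 16962 bases away, had 0.07. LINC02688, at chr11:1049880-1055749 on the plus strand, had 2.22, 3.33 and 2.20 CPM without auxin and 1.11, 2.47 and 1.48 CPM with it. Its groups overlapped through replicate 2, which was high in both, and all 3 pairs were lower with auxin. The log2 fold change was -0.62 with SE 0.16 (paired edgeR adjusted p = 0.0132), beside 0.04 for AP2A2, a subunit of the clathrin adaptor AP-2, 37635 bases away.

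**Figure D2:**
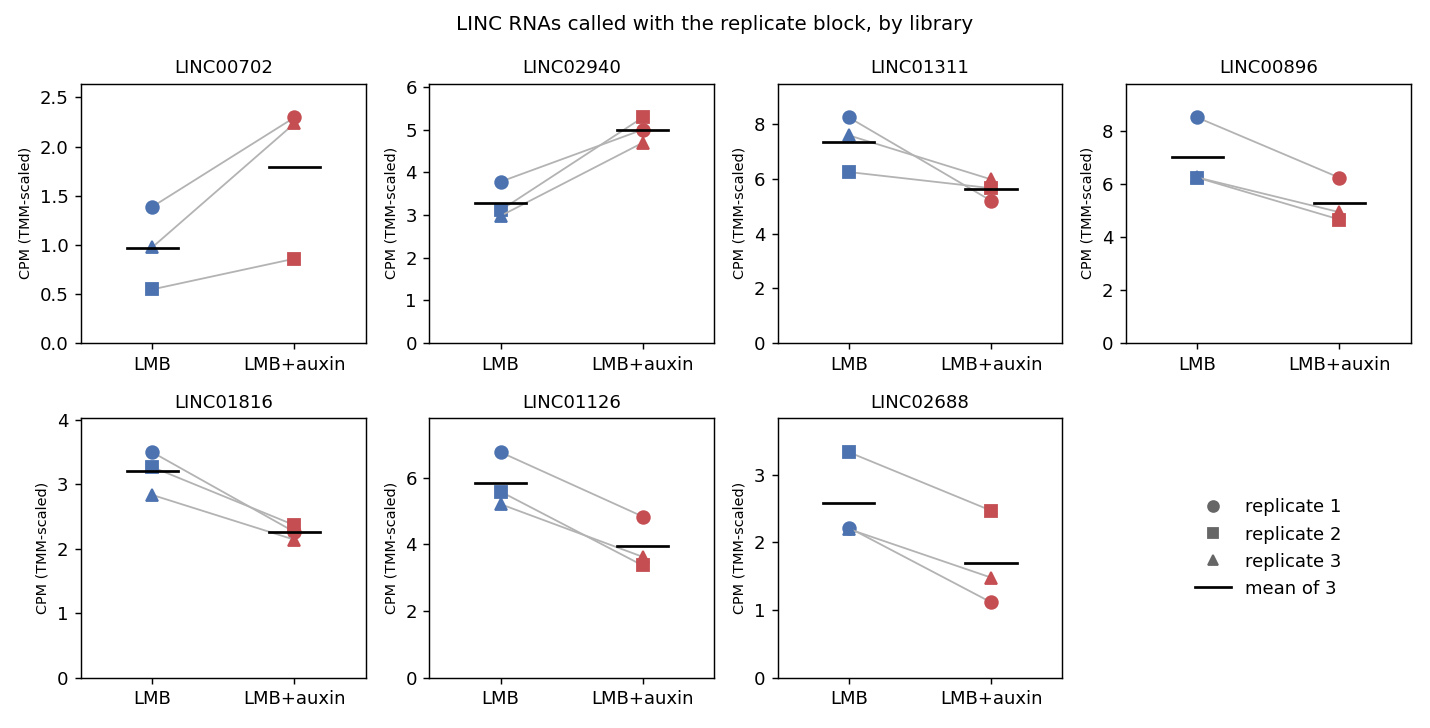
CPM scaled by TMM factors (y, from 0) in LMB and LMB+auxin libraries (x) for the 7 LINC genes called in the paired fit, with 1 symbol per replicate number, grey lines joining libraries of the same number and black bars for the mean of 3. All lines of a panel slope the same way, and the groups overlap in LINC00702 and LINC02688 alone.

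The 7 calls depended on which pairs were kept. Without replicate 1 of both groups, the paired fit called 3 of them (1.63%), LINC00702, LINC01126 and LINC02940, beside 0.831% of all tested genes. Without replicate 2 it called 5 (2.72%), those 3 with LINC01311 and LINC02688, beside 0.943%, and without replicate 3 it called 2 (1.09%), beside 0.807%. LINC01126 and LINC02940 were called in each of these fits, with adjusted p-values up to 0.0380 and 0.0387 respectively. LINC00896 and LINC01816 were called in none of them, with adjusted p-values from 0.0720 to 0.0952 and from 0.130 to 0.193. Their log2 fold changes stayed between -0.43 and -0.38 for LINC00896 and between -0.54 and -0.44 for LINC01816. LINC01311 moved further, from -0.39 to -0.25 without replicate 1.

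A further 3 LINC genes had a paired adjusted p under 0.05 with a change below 1.3-fold. LINC00235, which starts 305 bases from the calpain gene CAPN15 on the other strand, had 13, 8.46 and 9.49 CPM without auxin and 10.6, 6.38 and 7.62 CPM with it. Its groups overlapped, yet each pair dropped by a similar step, and its log2 fold change was -0.33 (paired edgeR adjusted p = 0.0137). The values were -0.30 for LINC02067 (adjusted p = 0.0482) and 0.25 for LINC00641 (adjusted p = 0.0384). LINC00641 lies 2236 bases from HNRNPC, whose product packages nascent RNA in the nucleus. Without LMB replicate 2 the unpaired log2 fold change of LINC00641 was 0.10, against 0.25 with all libraries. These genes were picked out after their values were seen, except LINC00641.

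The remaining genes with the lowest unpaired p-values passed neither test. LINC01004, within KMT2E, a gene of the histone methyltransferase family, had 4.23, 3.30 and 4.20 CPM without auxin and 3.07, 2.68 and 3.09 CPM with it. Its groups did not overlap, and its log2 fold change was -0.41 (edgeR adjusted p = 0.954 without pairing and 0.0530 with it). LINC01431 went from 1.41 ± 0.164 to 0.959 ± 0.0924 CPM (SD, n = 3 each), beside NXT1, the cofactor of NXF1, which had a log2 fold change of 0.01. LINC01719 went from 1.36 ± 0.0269 to 1.85 ± 0.371 CPM, with paired adjusted p = 0.149 by edgeR, and its neighbour NBPF10, of a family of near-identical copies, had -0.31.

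Small shifts leaned downward. Of the 184 genes, 106 (57.6%) had a log2 fold change below 0, beside 50.8% of all tested genes and 59.2% of other lncRNA genes. In 49 genes (26.6%) all 3 pairs were lower, beside 20.5%, and in 27 (14.7%) all 3 were higher, beside 21.4%. The groups did not overlap in 20 genes (10.9%), beside 11.5% of all tested genes. Of those 20, 16 were lower (8.7% of the LINC genes, beside 6.63%) and 4 higher (beside 4.9%). The 4 higher genes were LINC02940, LINC01719, LINC01792 and LINC00674.

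The median LINC gene had 2.93, 2.68 and 2.70 CPM without auxin and 2.63, 2.49 and 2.54 CPM with it. The medians of the groups did not overlap, although LMB replicate 2 and LMB+auxin replicate 1 differed by little. Low genes as a whole shared the lean. Under 2 CPM the median log2 fold change was -0.06 in LINC genes and -0.08 in all tested genes, and from 2 to 5 CPM it was -0.04 and -0.06. At 5 CPM or more it was -0.03 in LINC genes, -0.01 in other lncRNA genes and 0.01 in all tested genes. The part of abundance in the downward lean was not tested further.

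The lean was greater in LINC genes close to a coding gene. In the 38 whose bodies lay within 5 kb of the nearest tested coding gene without touching it, the median log2 fold change was -0.19. Of these, 27 (71.1%) were below 0, beside 67.6% of other lncRNA genes within 5 kb and 50.8% of all tested genes. The pair medians of the 38 were -0.20, -0.21 and -0.06 for replicates 1 to 3, so the third pair moved least. The 125 genes farther away had a median of -0.01, and the 21 that overlapped the coding gene -0.03. Other lncRNA genes within 5 kb had -0.10 and those farther away -0.07. The coding neighbours of the 38 had a median of -0.03. The classes were compared as a description, with no test of the difference, and 2 of the 38 were called in the paired fit (LINC01126 and LINC01311, 5.26%) beside 5 of the 125 (4%). The called shares of other lncRNA genes were 2.52% within 5 kb and 3.14% farther away, and that of all tested genes was 1.18%.

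**Figure D3:**
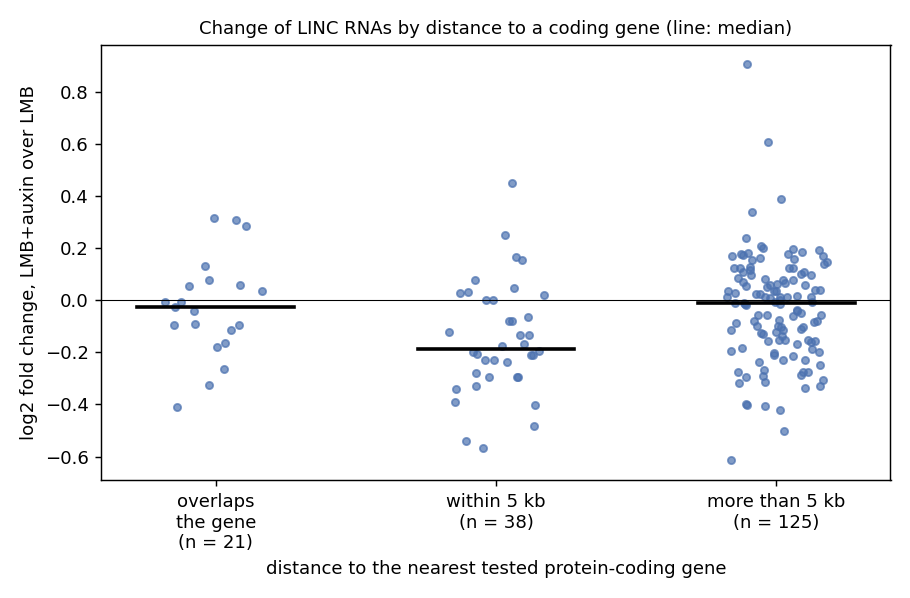
Log2 fold change of LMB+auxin over LMB in the fit without pairing (y) for each of the 184 LINC genes, by distance to the nearest tested protein-coding gene (x), with points spread sideways for sight and a black line at the median. The class within 5 kb has its median at -0.19, and the other classes have theirs at -0.03 and -0.01.

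A further group holds the 10 LINC genes that start within 1 kb of the start of a coding gene on the other strand, the layout of a shared bidirectional promoter. Of these 10, 7 (70%) had a log2 fold change below 0, beside 57.6% of the 184 and 50.8% of all tested genes. The median of the 10 was -0.24, and the median of their coding partners was -0.09. Besides LINC01126 and LINC00235, the lower genes were LINC01124 beside SP5, LINC01424, LINC01521, LINC01547 and LINC01560. LINC00205, LINC00649 and LINC02603 were above 0, and LINC02603 had the highest log2 fold change of the 10, 0.31 (paired edgeR adjusted p = 0.0667). LINC01126 was called in this layout and no other of the 10. That share of 10%, beside 1.18% of all tested genes in the paired fit, rests on 1 gene.

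Across all 184 genes the LINC change followed that of the nearest coding gene weakly. Pearson's r between the paired log2 fold changes was 0.24 and Spearman's rank coefficient 0.19 across genes, and 93 of 184 had the same sign as their neighbour. Genes are not independent replicates, 171 distinct neighbours stand behind the 184 genes, and all values come from the same 6 libraries, so no p is given. Without the 7 called genes, r was 0.13 and the rank coefficient 0.15 over 177.

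**Figure D4:**
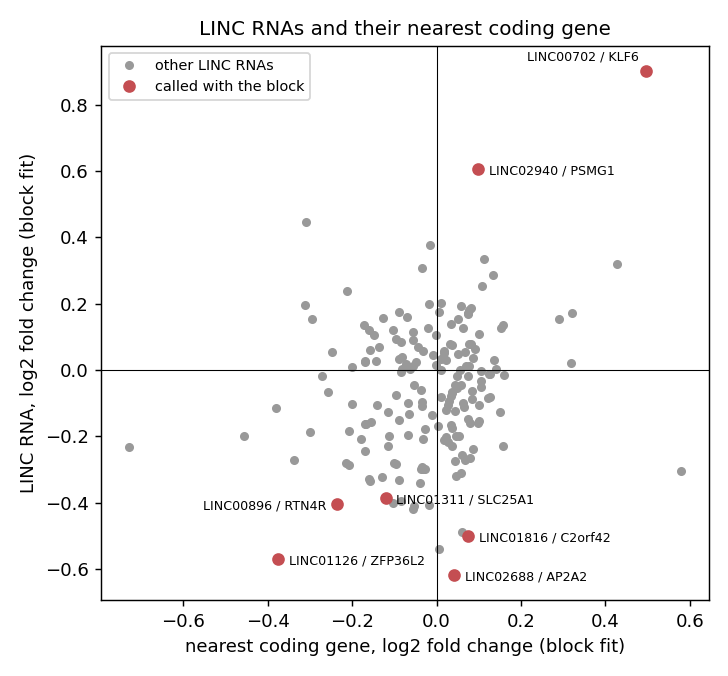
Log2 fold change of the nearest tested coding gene (x) against that of the LINC gene (y), both LMB+auxin over LMB in the paired fit, with the 7 called LINC genes in red and named with their neighbour. LINC00702 and KLF6 lie high together and LINC01126 and ZFP36L2 low together, while LINC02688, LINC01816 and LINC02940 stand far from 0 beside neighbours near 0.

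In the paired fit 3 of 171 distinct coding neighbours were called. By distance these were 0 of 19 overlapping neighbours, 2.63% of 38 within 5 kb and 1.71% of 117 farther away, beside 0.837% of all tested coding genes. LINC00702 beside KLF6 was the single LINC gene called with its neighbour, and 3 cases are too few to show a pattern. FOS, the immediate-early AP-1 subunit 12174 bases from LINC01220, rose with a log2 fold change of 0.58 (paired edgeR adjusted p = 1.5e-06), whereas LINC01220 had -0.31 (adjusted p = 0.476). TBX2, a T-box repressor 2285 bases from LINC02875, fell with a log2 fold change of -0.73 (adjusted p = 0.0101), beside -0.23 for LINC02875 (adjusted p = 0.565). FOS and TBX2 were picked out after their values were seen.

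The study's own lists of genes called in other libraries of this system, without Leptomycin B, were searched for LINC genes. Among 20 genes listed as higher after TPR loss, LINC00511 was the single one of the 184, and among 147 listed as lower there was 0. LINC00511, a long multi-exon gene at chr17:72290091-72640472 on the minus strand that has been described as raised in several tumour types, had 24.7, 30.04 and 28.9 CPM in LMB. In LMB+auxin it had 29.5, 33.8 and 30.9 CPM. It was higher in all 3 pairs while the groups overlapped, and its log2 fold change of 0.17 passed neither test (edgeR adjusted p = 0.954 without pairing and 0.0936 with it). The list of genes higher after loss of GANP, the TREX-2 scaffold, also held LINC00511 and no other of the 184.

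The list of genes lower after GANP loss held 15 LINC genes among its 1418 tested genes, while LINC genes made up 1.08% of all tested genes. Of the 15, 12 had a log2 fold change below 0 here, beside 57.6% of the 184. Their median was -0.14, beside -0.05 over the 184. LINC01126 and LINC00896 were called lower and the other 13 were not called, beside 3.8% of the 184 called in the paired fit. That share includes LINC01126 and LINC00896 themselves. Of all tested genes, 1.18% were called in the same fit and 0.884% were called lower. The direction and the calls of the other genes on this list were not examined, so these counts may not be particular to LINC genes. The list of genes lower after NXF1 loss held LINC01126, LINC01508 and LINC00680, with log2 fold changes of -0.57, -0.20 and -0.02. The list higher after NXF1 loss held LINC01311, which fell here, LINC00641 at 0.25 and LINC01465 at -0.08. The lists overlap, and their values without Leptomycin B were not used.

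Factors that process or degrade noncoding RNA in the nucleus did not pass either test. The 13 tested were exosome subunits and cofactors (EXOSC3, EXOSC10, DIS3, MTREX, ZFC3H1, PABPN1, ZCCHC8, RBM7), cap-binding partners (SRRT, NCBP1) and 3′ end nucleases or the termination exonuclease (INTS11, CPSF3, XRN2). Their log2 fold changes ran from -0.16 (RBM7) to 0.16 (ZCCHC8), and 0 of 13 had an unadjusted edgeR p under 0.05 without pairing, beside 4.37% of all tested genes. In the paired edgeR fit 6 of 13 did, beside 19.9% of all tested genes. Those were MTREX, ZCCHC8, NCBP1, CPSF3 and XRN2, with fold changes above 0, and RBM7 below it, and the lowest paired adjusted p of the 13 was 0.0906 (ZCCHC8). In bulk RNA, fewer cells with a transcript and less RNA per cell cannot be told apart, and steady-state counts do not separate synthesis from decay.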

How the data were processed

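Total RNA depleted of ribosomal RNA was sequenced from 3 LMB and 3 LMB+auxin cultures. Per the submitters' processing notes, CASAVA 1.8.2, STAR 2.6.1c and featureCounts 1.5.2 were used with GRCh38. The authors deposited whole-number counts for each Ensembl gene, not normalized, and the strand setting was not given in the sources used here. Columns of other series numbered 0. Total counts were 28261903 to 35992425 per library, and precision was limited by 3 libraries per group.

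Of the identifiers, 98.1% had a gene name, from GENCODE 44 or, where it gave none, from a second list of names. GENCODE 44 also gave coordinates, exon lengths and overlaps. The study's methods name an earlier annotation release for counting, so the gene models that were counted may differ. Genes above 1 CPM in at least 3 libraries were tested with edgeR 4.0.16 in R 4.3.3 (TMM scaling, glmQLFit with robust estimation, glmQLFTest), with Benjamini-Hochberg adjustment over all 16974 genes and calls at adjusted p under 0.05 and 1.3-fold. Library deviations correlated within all 3 replicate numbers (0.531, 0.691 and 0.273). Across numbers, the correlations between replicates 1 and 3 were 0.146 and 0.142, and those with replicate 2 ran from -0.573 to -0.300. The fit with the number as a block is therefore given beside the unpaired one. The pairing comes from these values and not from the labels, and whether replicates were separate cultures is stated only by the study's methods. The SE of an edgeR log2 fold change was its absolute value divided by the square root of the test's F statistic. It therefore restates that test and is no separate measure of spread. DESeq2 1.42.0, limma-voom (limma 3.58.1), glmTreat, other scalings and filters, and left-out libraries were alternatives. Steps were tested on simulated counts. Those for the unpaired fit had less spread between libraries than these data, so they do not give its error rate here.

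Named genes were the 10 with the highest CPM, all called in either fit, the 8 with the lowest unpaired p, those in the study's TPR lists, the extremes of fold change and 3 on each side of the threshold, with neighbours of the called and low-p genes. Other genes were named after their values were seen. The members and lists were chosen with earlier results of these data known.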

Additional observations from a re-analysis of the deposited data

How the results depend on the processing

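Without pairing, the count of LINC genes called stayed at 0 in all alternatives run, including DESeq2, limma-voom, glmTreat, other scalings, other filters and each left-out library. With the replicate block it was 7, and 8 with the block under library size or upper quartile scaling, which added LINC01004. With the block and replicate 1, 2 or 3 of both groups left out, an alternative chosen after seeing the data like these scalings, it was 3, 5 and 2. The median log2 fold change of -0.05 ranged from -0.073 to -0.023 with 1 library left out. The cause was not tested.

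Of 413 recomputed values for 20 named genes, 17 changed sign, all in 4 genes close to 0 or resting on 1 library. With 1 library left out, LINC00243 ran from -0.041 (without LMB+auxin replicate 2) to 0.35, LINC02210 from -0.16 to 0.046, LINC02889 from -0.15 to 0.089 and LINC03057 from -0.072 to 0.079. LINC02889 went to 6.1e-04 with DESeq2, 4.5e-04 with its size factors and 0.049 with the block without replicate 3. LINC03057 went to -0.0014 under the CPM and FPKM filter, -0.011 by library size, -0.0076 by upper quartile, -0.010 and -0.0069 with the block under these scalings and -0.0089 with the block without replicate 1. Depth limits the low genes, with counts from 17 reads upward for LINC00702, and these limits apply to the other low genes too.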
